A study of Medicago truncatula with 18 samples.

Results

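Medtr4g114980 and Medtr7g112460 are 2 genes of Medicago truncatula annotated as topless-like proteins and called TPL-like in the study's list of candidate flowering time genes. They were taken by their identifiers from both deposited tables, and are 2 of 50444 genes in those tables and 2 of 10 TPL-like genes in that list. Both were singled out in the study from these same libraries, for being lower in LD, for a response to LD that did not pass a test of change between timepoints, and for a profile over all 6 groups opposite to that of the florigen gene MtFTa1. The tests of LD against SD and of the interaction with timepoint, the changes from ZT0 to ZT2 and the correlation with MtFTa1 all draw on levels that the choice used, so on these 2 genes they describe the members and are no independent support. The ratio of the 2 genes to each other was not itself a criterion, but it is formed from the same levels. The study placed the 2 genes in different clusters of profiles over these 6 groups. A ratio that changes between the groups is thus not independent of that placement.

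Plants of the cultivar Jester were grown from germinated, vernalised seed in SD (8 h of light) for 10 days, and then either kept in SD or moved to LD (16 h of light) with lights on at the same time. ZT counts the hours from lights on. Each of the 18 libraries came from 2 first trifoliate leaves pooled from different plants, with 3 libraries in each of 6 groups, so p-values measure the spread between such pools. In experiment 1 the plants were 13 days old, those in LD had spent 3 days there, and leaves were taken at ZT0 and ZT2 for ScriptSeq libraries. In experiment 2 the plants were 15 days old, those in LD had spent 5 days there, and leaves were taken at ZT4 for TruSeq Stranded mRNA libraries. Time of day at ZT4 thus cannot be told apart from experiment, age, days in LD and library kit, and ZT4 levels were not tested against those at ZT0 or ZT2. Total estimated counts ran from 18009808 to 19560647 per library in experiment 1 and from 20690658 to 23201592 in experiment 2. The leaf is a mixture of cell types, and fewer cells of a type cannot be told apart from less RNA per cell.

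TOPLESS (TPL) and its relatives are corepressors of the Groucho/TLE type. They bind no DNA themselves and in A. thaliana are brought to target genes by transcription factors that carry an EAR motif. In the leaf of A. thaliana the CYCLING DOF FACTORs (CDFs) act with TPL to hold down CONSTANS and the florigen gene FLOWERING LOCUS T (FT), and the blue light receptor FKF1 and its partner GIGANTEA (GI) remove CDFs in the afternoon of LD. Clock PSEUDO-RESPONSE REGULATORs (PRRs) and floral repressors of the AP2 class also work with TPL in that species.

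Both genes were well measured in all 18 libraries. Medtr4g114980 had between 644 and 1537 estimated counts in a library and Medtr7g112460 between 291 and 714. Each of these counts lay within 0.005 of a whole number, while 12.9% of the counts above 0 in the whole table were more than 0.01 from one. Levels are given in TPM, the share of a library's transcripts scaled to a fixed total, which is per transcript length and so allows the 2 genes to be set side by side, and changes as log2 fold changes of normalised counts.

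Medtr7g112460 was lower in LD at each of the 3 timepoints. At ZT0 the SD libraries had 7.68, 6.24 and 7.22 TPM and the LD libraries 5.56, 4.60 and 5.63 TPM. At ZT2 they had 6.31, 4.95 and 5.66 TPM in SD and 3.23, 3.92 and 3.99 TPM in LD. At ZT4 they had 4.98, 5.29 and 4.85 TPM in SD and 3.04, 3.09 and 2.38 TPM in LD. Every LD library lay below every SD library of its timepoint, which was also so for 12.1% of all genes tested at ZT0, 13.3% at ZT2 and 26.8% at ZT4.

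On the log2 scale of normalised counts Medtr7g112460 changed by -0.52 ± 0.11 (SE, n = 3 against 3, adjusted p = 0.00105 by edgeR's quasi-likelihood test) at ZT0, which is 1.43-fold lower in LD. The change was -0.65 ± 0.11 (adjusted p = 1.44e-04) at ZT2, 1.56-fold lower, and -0.77 ± 0.11 (adjusted p = 1.91e-05) at ZT4, 1.70-fold lower. Of all 31363 genes tested, 14.2% were called lower in LD at ZT0, 10.3% at ZT2 and 16.9% at ZT4, and 1.87% were called lower at all 3 timepoints, as Medtr7g112460 was.

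Medtr4g114980 overlapped between the photoperiods at ZT0 and was lower in LD at ZT2 and ZT4. At ZT0 its SD libraries had 10.4, 8.17 and 10.0 TPM and its LD libraries 10.3, 9.69 and 6.85 TPM, where replicate 3 of LD was the low one. At ZT2 they had 9.75, 11.7 and 14.2 TPM in SD and 9.05, 9.02 and 9.65 TPM in LD, with the SD libraries spread over a wide range and the lowest of them just above the LD libraries. In normalised counts the groups overlapped at ZT2, with 968 in replicate 1 of SD and 981 in replicate 3 of LD. At ZT4 they had 12.6, 14.3 and 13.3 TPM in SD and 9.56, 8.04 and 7.53 TPM in LD, with a clear gap between the groups. All LD libraries also lay below SD in TPM for 13.3% of all genes tested at ZT2 and 26.8% at ZT4.

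The log2 fold change of Medtr4g114980 was -0.20 ± 0.13 (SE, n = 3 against 3, adjusted p = 0.283 by edgeR's quasi-likelihood test) at ZT0 and did not pass the threshold of 0.05. It was -0.42 ± 0.12 (adjusted p = 0.0163) at ZT2, 1.33-fold lower in LD, and -0.62 ± 0.12 (adjusted p = 5.86e-04) at ZT4, 1.54-fold lower. The call at ZT2 was lost without replicate 2 of SD at ZT2 (adjusted p = 0.0596), without replicate 3 of that group (adjusted p = 0.121) or without replicate 1 of LD at ZT2 (adjusted p = 0.0703). Its call at ZT4 held whichever library was left out, with adjusted p of at most 0.0106.

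**Figure D1:**
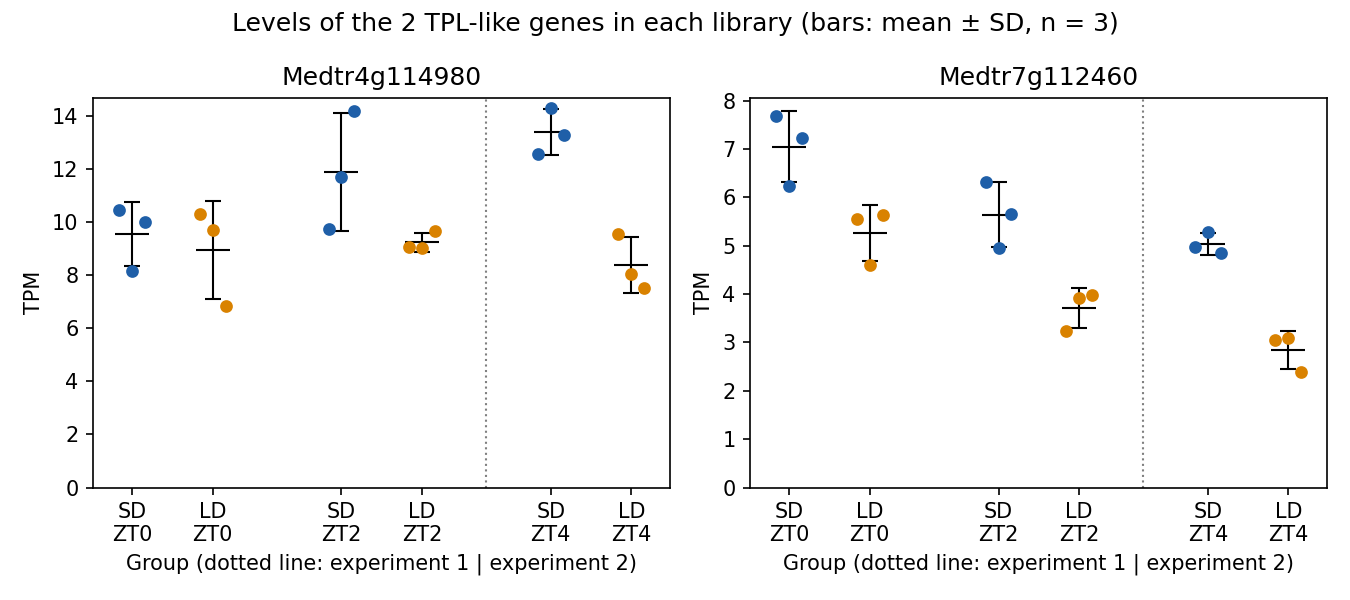
TPM of Medtr4g114980 (left) and Medtr7g112460 (right) in each of the 18 libraries, by group, with SD in blue, LD in orange, and bars for the mean ± SD of 3 libraries. Medtr7g112460 in LD lay below SD at each timepoint, while Medtr4g114980 overlapped at ZT0, where 1 LD library was at 6.85 TPM and the others at 10.3 and 9.69 TPM.

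For both genes the fitted size of the fall in LD grew in the order ZT0, ZT2, ZT4, but neither passed the joint test of the interaction of photoperiod and timepoint, which asks whether the LD to SD ratio changes with timepoint. Both genes were drawn in the study from those without a passing interaction in the same libraries, so this restates the choice. The adjusted p of edgeR's quasi-likelihood test was 0.186 for Medtr4g114980 and 0.470 for Medtr7g112460, where 30.4% of all genes tested passed. For Medtr4g114980 the interaction passed without replicate 3 of LD at ZT0 (adjusted p = 0.0331). Within experiment 1 the log2 fold change at ZT2 minus that at ZT0 was -0.21 for Medtr4g114980 (95% interval -0.58 to 0.15, adjusted p = 0.502, a test that 18.6% of all genes passed). For Medtr7g112460 it was -0.13 (95% interval -0.45 to 0.20, adjusted p = 0.694). Across the 2 experiments, the log2 fold change at ZT4 minus that at ZT0 was -0.42 for Medtr4g114980 (95% interval -0.79 to -0.05, adjusted p = 0.0852, a test that 26.9% of all genes passed). For Medtr7g112460 it was -0.25 (95% interval -0.58 to 0.07, adjusted p = 0.271). The interval of Medtr4g114980 does not hold 0, but it is not adjusted for the number of genes. These intervals leave room for a sizeable change in either gene between the timepoints. In the model with no interaction, the LD term was -0.41 ± 0.09 (SE, adjusted p = 0.00161) for Medtr4g114980 and -0.64 ± 0.07 (adjusted p = 3.99e-06) for Medtr7g112460 over the 18 libraries. There 13.7% of genes were called lower in LD, and 7.78% were called lower with an interaction that did not pass, the class to which both genes belong.

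From ZT0 to ZT2, the first hours of light, the fitted changes of the 2 genes had opposite signs, with only Medtr4g114980 called in SD and only Medtr7g112460 in LD. In SD the mean of Medtr4g114980 went from 9.54 ± 1.21 TPM (SD, n = 3) to 11.9 ± 2.22 TPM, a log2 fold change of 0.37 ± 0.12 (SE, adjusted p = 0.0298 by edgeR's quasi-likelihood test). The libraries of the 2 timepoints overlapped, since replicate 1 at ZT2 had 9.75 TPM. In LD the mean went from 8.95 ± 1.84 to 9.24 ± 0.36 TPM, a log2 fold change of 0.15 ± 0.13 that did not pass (adjusted p = 0.432). Medtr7g112460 fell in LD, from 5.26 ± 0.57 to 3.71 ± 0.42 TPM, with no overlap (as for 22.2% of all genes tested) and a log2 fold change of -0.41 ± 0.11 (adjusted p = 0.00754). In SD its mean went from 7.04 ± 0.74 to 5.64 ± 0.68 TPM, a log2 fold change of -0.28 ± 0.11 that just missed the threshold (adjusted p = 0.0594). Of all genes tested, 17.9% were called higher and 17.6% lower at ZT2 in SD, and 11.5% and 13.2% in LD, so calls of this kind were common.

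The single calls of ZT2 against ZT0 changed with the processing. That of Medtr4g114980 in SD was lost with the replicate number as a block (adjusted p = 0.0517) and with experiment 1 fitted alone (adjusted p = 0.0598). It was also lost without any 1 of 7 libraries, namely replicate 2 or 3 of SD at ZT0 (adjusted p = 0.130 and 0.0815), replicate 2 or 3 of SD at ZT2 (0.116, 0.200), replicate 2 of LD at ZT2 (0.0507) and replicate 2 or 3 of SD at ZT4 (0.0613 and 0.0633). The fall of Medtr7g112460 in LD was lost without replicate 1 of LD at ZT2 (adjusted p = 0.0645). In SD the same gene passed with 2 other settings, with DESeq2 size factors (adjusted p = 0.0477) and with filterByExpr (adjusted p = 0.0350). It also passed without any 1 of 9 libraries, with adjusted p of 0.0347 to 0.0476, namely replicate 2 or 3 of LD at ZT0, replicate 1 of SD at ZT2, each replicate of LD at ZT2, replicate 2 or 3 of SD at ZT4 and replicate 3 of LD at ZT4.

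**Figure D2:**
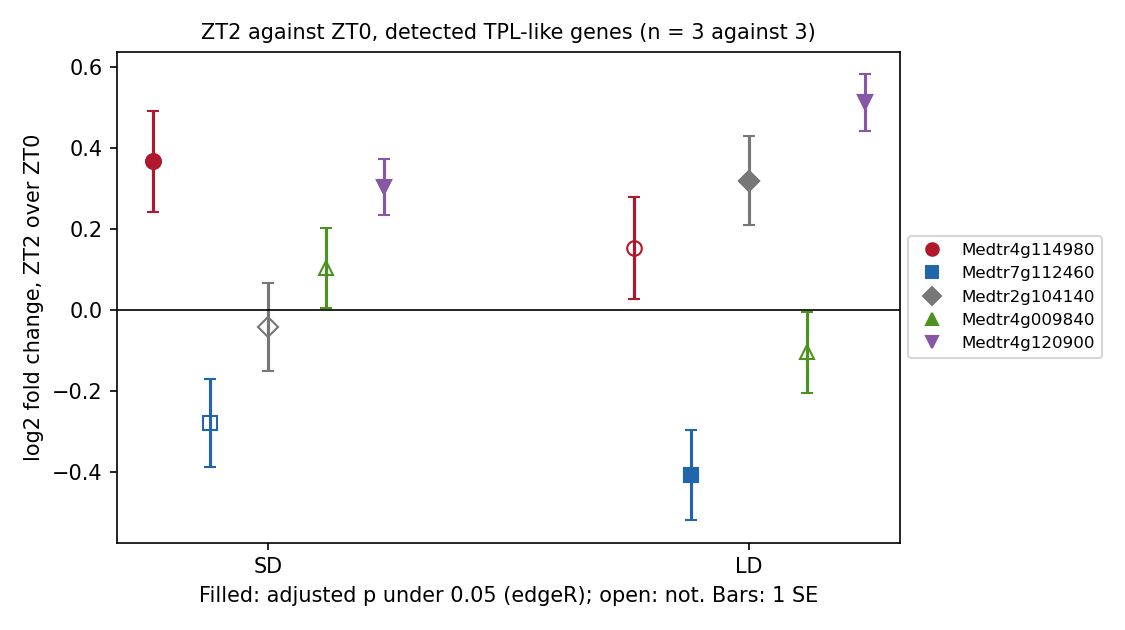
Log2 fold change of normalised counts at ZT2 over ZT0 in SD and in LD, with bars of 1 SE, for the 5 TPL-like genes with at least 291 counts in every library, filled where the adjusted p was under 0.05. Medtr4g114980 lies above 0 (0.37 in SD and 0.15 in LD) and Medtr7g112460 below it (-0.28 and -0.41).

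The ratio of the 2 genes within a library compares their changes in a single value, which does not depend on library size. In SD at ZT0 Medtr4g114980 stood at 1.36, 1.31 and 1.38 times the TPM of Medtr7g112460, after 0.1 TPM was added to each. In SD at ZT2 it stood at 1.54, 2.34 and 2.48 times. The ZT2 libraries all lay above the ZT0 libraries.

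In LD the ratio was 1.84, 2.08 and 1.21 at ZT0 and 2.75, 2.27 and 2.38 at ZT2, again with no overlap. Over both photoperiods the mean log2 ratio was 0.59 higher at ZT2 than at ZT0, a factor of 1.51. An exact two-sided permutation test within photoperiod gave p = 0.005, and p = 0.01 after adjustment over the 2 comparisons of this ratio. Since the study had placed the 2 genes in different clusters of profiles from these libraries, this test describes them and is no independent support. The difference was 0.62 in SD alone and 0.56 in LD alone, where each exact p was 0.1, the smallest that 3 against 3 libraries allow. Without any 1 of the 12 libraries of experiment 1 the difference stayed between 0.48 and 0.70, with exact p of at most 0.02.

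Whether LD changed the ratio was less clear, and this test too describes the 2 genes and is no independent support. The mean log2 ratio was 0.23 higher in LD than in SD over the 3 timepoints, a factor of 1.17, with p = 0.0563 by an exact two-sided permutation test within timepoint. Within timepoints the difference was 0.31 at ZT0 (exact p = 0.4), 0.25 at ZT2 (exact p = 0.5) and 0.14 at ZT4 (exact p = 0.3), where the smallest p possible is 0.1. The libraries of LD and SD overlapped at each timepoint. The LD library that was low in Medtr4g114980, replicate 3 at ZT0, had the lowest ratio of all 18 libraries (1.21), and without it the difference was 0.31 (exact p = 0.00575). The test also passed without replicate 2 or 3 of SD at ZT2 (exact p = 0.045 and 0.028), without replicate 2 of LD at ZT4 (exact p = 0.0248) and on normalised counts in place of TPM (exact p = 0.049). It did not pass with experiment 1 alone, where the difference was 0.28 (exact p = 0.14), or with 1 TPM added in place of 0.1, where it was 0.16 (exact p = 0.139).

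**Figure D3:**
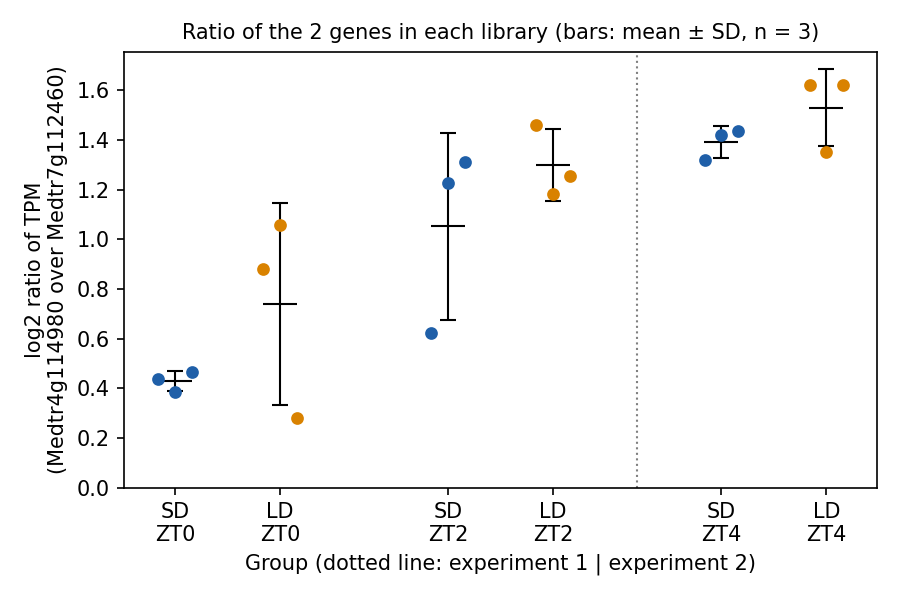
Log2 ratio of the TPM of Medtr4g114980 over that of Medtr7g112460 in each of the 18 libraries, by group, with SD in blue, LD in orange, and bars for the mean ± SD of 3 libraries. The group mean went from 0.43 in SD at ZT0 to 1.05 in SD at ZT2, and from 0.74 to 1.30 in LD, while LD and SD overlapped at each timepoint.

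Set in order of mean TPM, the groups stood differently for the 2 genes. For Medtr4g114980 the 3 SD groups came first, with 13.4 ± 0.87 TPM (SD, n = 3) at ZT4, then ZT2 and ZT0, and the 3 LD groups followed down to 8.37 ± 1.06 TPM at ZT4. Each neighbouring pair of groups in that order overlapped in its libraries. For Medtr7g112460 the order was SD at ZT0, SD at ZT2, LD at ZT0, SD at ZT4 with 5.04 ± 0.23 TPM, LD at ZT2 and LD at ZT4 with 2.84 ± 0.39 TPM. Each neighbouring pair among the first 4 of these groups overlapped. The last 2 each lay below the group before it, but these steps cross the experiments, and the share of all genes with such gaps was not counted. The ZT4 groups stand in both orders across the change of experiment and kit.

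The other TPL-like genes place the 2 among their relatives. Of the 10 genes in the list, 6 had a count in all 18 libraries. Medtr4g009840 had the highest mean level in each group, from 12.9 to 43.6 TPM over the libraries. Medtr2g104140 (9.96 to 25.9 TPM) and Medtr4g120900 (9.42 to 15.0 TPM) were at levels near those of Medtr4g114980 (6.85 to 14.3 TPM). Medtr7g112460 (2.38 to 7.68 TPM) was at rank 5 by its mean in each group, and Medtr2g065670 was scarce, with 2 to 21 counts in a library.

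The remaining 4 were barely seen or not seen. Medtr2g435440 had counts in 3 libraries and at most 2 of them. Medtr2g435380 had a single count in 1 library. Medtr2g435370, annotated as a transducin/WD-40 repeat protein, and Medtr1g012820 had 0 counts in all 18 libraries, which allows up to 3 counts in a library. Both genes with no count and Medtr2g435380 were too low to be tested.

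Medtr4g114980 made up 10.7% ± 0.61 (SD, n = 3) of the summed TPM of the 10 genes in SD at ZT0 and 12.6% ± 1.02 in LD. At ZT4 it made up 20.1% ± 0.81 in SD and 17.0% ± 0.27 in LD. Medtr7g112460 was a smaller part, from 5.29% ± 0.64 in LD at ZT2 to 7.93% ± 0.27 in SD at ZT0. The summed level of the 10 genes at ZT0 was 88.9 ± 9.90 TPM in SD and 70.5 ± 10.2 TPM in LD. It was 92.4 ± 7.94 and 70.2 ± 2.62 TPM at ZT2, and 66.5 ± 4.32 and 49.4 ± 5.70 TPM at ZT4. The libraries of LD and SD overlapped in that sum at ZT0, by the narrow margin between 79.8 TPM, the lowest in SD, and 80.0 TPM, the highest in LD, and did not overlap at ZT2 or ZT4.

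**Figure D4:**
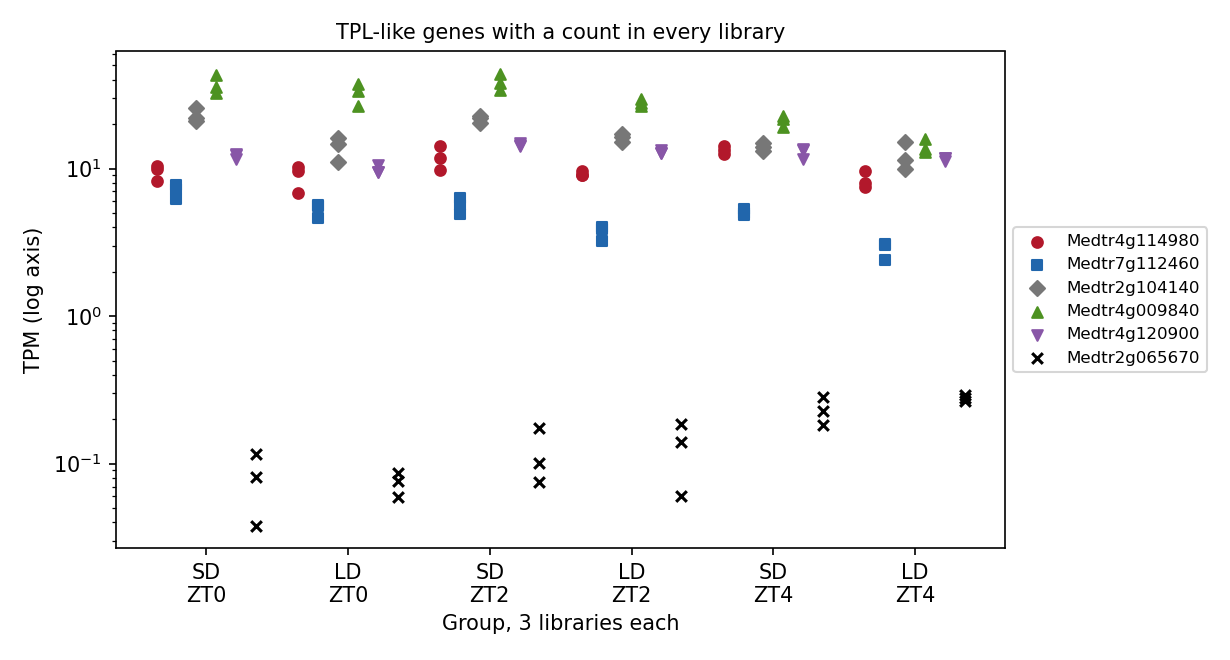
TPM on a log axis of the 6 TPL-like genes with a count in every library, 3 libraries in each group. Medtr4g009840 lies on top in each group by its mean, Medtr7g112460 runs below the other well expressed genes, between 2.38 and 7.68 TPM, and Medtr2g065670 lies far below them all.

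Among the 7 TPL-like genes tested, those called lower in LD numbered 4 at ZT0, 5 at ZT2 and 3 at ZT4, beside 14.2%, 10.3% and 16.9% of all genes, and none was called higher. These counts, and the medians that follow, include the 2 members, which were chosen for being lower in LD. Medtr7g112460 is among the calls at each timepoint and Medtr4g114980 among those at ZT2 and ZT4. At ZT4 the only other gene called was Medtr4g009840. The median log2 fold change of the 7 was -0.30 at ZT0, -0.42 at ZT2 and -0.15 at ZT4, beside 0.00, 0.00 and -0.04 over all genes tested, and -0.36, -0.44 and -0.33 for the 6 without Medtr2g435440. The count at ZT2 fell to 3 without replicate 2 of SD, or without replicate 1 of LD, at that timepoint. Medtr4g009840, like Medtr7g112460, was called lower at each timepoint, with log2 fold changes of -0.30 ± 0.10 (SE, adjusted p = 0.0313 by edgeR's quasi-likelihood test) at ZT0, -0.50 ± 0.10 (adjusted p = 5.65e-04) at ZT2 and -0.52 ± 0.10 (adjusted p = 4.47e-04) at ZT4. Its call at ZT0 was lost without replicate 1 or 2 of SD at ZT0 (adjusted p = 0.144 and 0.0515) or replicate 3 of LD at ZT0 (adjusted p = 0.159), with the replicate block (adjusted p = 0.0595) and with the ZT0 libraries alone (adjusted p = 0.0820).

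For Medtr2g104140 and Medtr4g120900 the fitted fall was smaller at each later timepoint. The fall of Medtr2g104140 in LD was deepest at ZT0, with log2 fold changes of -0.83 ± 0.11 (SE, adjusted p = 5.86e-06 by edgeR's quasi-likelihood test), then -0.47 ± 0.11 (adjusted p = 0.00233) at ZT2 and -0.15 ± 0.11 (adjusted p = 0.388) at ZT4. Medtr4g120900 had -0.43 ± 0.07 (adjusted p = 7.69e-05), -0.22 ± 0.07 (adjusted p = 0.0231) and -0.08 ± 0.07 (adjusted p = 0.445). Both passed the interaction test (adjusted p = 0.00548 for Medtr2g104140 and 0.0295 for Medtr4g120900), which makes 2 of 7 TPL-like genes, close to the 30.4% of all genes. Those 7 include the 2 members, which were drawn from genes without a passing interaction. They also include the scarce Medtr2g435440 and Medtr2g065670, with at most 2 and 21 counts in a library, so the share depends on which genes are counted. With experiment 1 alone the interaction passed neither for Medtr2g104140 nor for Medtr4g120900 (adjusted p = 0.0602 and 0.0903). With no filter on low counts Medtr4g120900 lost both its interaction (adjusted p = 0.0567) and its call at ZT2 (adjusted p = 0.0604). Whether their change over time differed from that of the 2 genes was not tested. The ZT2 call of Medtr4g120900 was lost without replicate 2 of SD at ZT2 (adjusted p = 0.0881), replicate 1 of LD at ZT2 (0.0710) or replicate 3 of that group (0.0557), and its interaction without replicate 2 of SD (0.0680) or LD (0.0614) at ZT0, replicate 1 of SD at ZT4 (0.0733) or replicate 2 of LD at ZT4 (0.0620). Medtr2g104140 was called at ZT4 without replicate 1 of LD there (adjusted p = 0.0423).

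**Figure D5:**
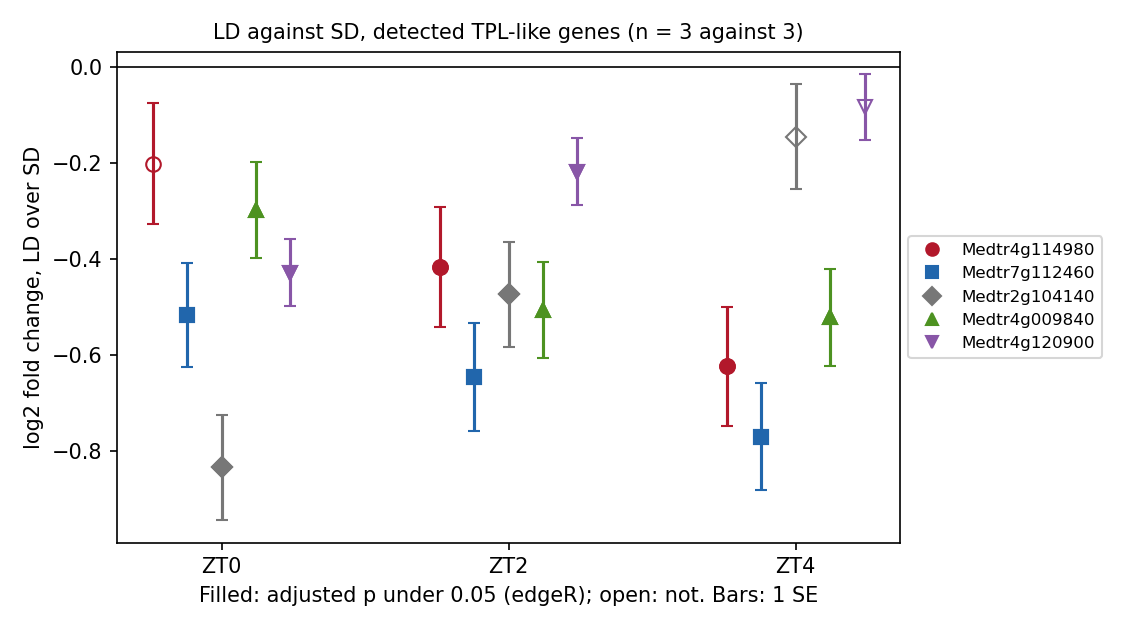
Log2 fold change of normalised counts in LD over SD at ZT0, ZT2 and ZT4, with bars of 1 SE, for the 5 well expressed TPL-like genes, filled where the adjusted p was under 0.05. Every value lies below 0, those of Medtr4g114980 and Medtr7g112460 run from -0.20 and -0.52 at ZT0 to -0.62 and -0.77 at ZT4, and those of Medtr2g104140 and Medtr4g120900 from -0.83 and -0.43 to -0.15 and -0.08.

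From ZT0 to ZT2, 2 of the 7 tested TPL-like genes were called higher in SD, Medtr4g114980 and Medtr4g120900, and none lower, beside 17.9% and 17.6% of all genes. Medtr4g120900 rose by a log2 fold change of 0.30 ± 0.07 (SE, adjusted p = 0.00180 by edgeR's quasi-likelihood test) in SD and of 0.51 ± 0.07 (adjusted p = 6.42e-06) in LD. Medtr2g104140 was also called higher in LD, at 0.32 ± 0.11 (adjusted p = 0.0322), a call that was lost when any 1 of 6 libraries was left out, with adjusted p of 0.0514 to 0.180. Those 6 were replicate 2 of SD at ZT0, replicate 3 of LD at ZT0, replicate 2 of SD at ZT2 and each LD replicate at ZT2. In LD 2 of the 7 were called higher, beside 11.5% of all genes, and 1, Medtr7g112460, lower, beside 13.2%. That single call was lost without replicate 1 of LD at ZT2, as given above.

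Genes whose A. thaliana counterparts work with TPL, are regulated through it or remove CDFs were counted in 5 lists of 37 genes taken from the study's candidates. In the CDF list, 3 of 14 genes were called higher in LD at ZT0 and 5 lower, 8 higher and 1 lower at ZT2, and 9 higher and 1 lower at ZT4. All genes tested had 15.5%, 10.3% and 12.4% called higher and 14.2%, 10.3% and 16.9% lower. The median log2 fold change of the list was -0.22, 1.14 and 2.29, or -0.24, 0.86 and 0.68 with genes at the floor of 3 counts in 1 group set to the fold against that floor and those at the floor in both left out. MtCDF1 was the 1 called lower with the greatest fitted change at ZT2 and ZT4: it had 12 to 25 counts in SD at ZT2 against 0 or 1 in LD, and 169 to 225 against 0 or 1 at ZT4. The greatest change at ZT0 was in MtCDFf, which had 1 to 3 counts in SD and 18 to 26 in LD.

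The PRRs, clock repressors, were mostly lower in LD: 4 of 7 at ZT0, 5 at ZT2 and all 7 at ZT4, with 2 called higher at each of the first 2 timepoints and medians of -2.01, -1.48 and -2.06, beside the same shares of all genes (14.2%, 10.3% and 16.9% lower, 15.5%, 10.3% and 12.4% higher). The greatest changes were in MtPRR59c at ZT0 (-6.11 ± 0.28 on the log2 scale, SE), MtPRR37a at ZT2 (-3.38 ± 0.17) and MtPRR59a at ZT4 (-4.36 ± 0.19), with adjusted p of at most 1.57e-11 by edgeR's quasi-likelihood test. MtPRR59c had 3 counts in its lowest library, which is the floor, so the size of its change is less sure than its direction. In the AP2 list 4 of 8 genes were called higher and 3 lower at ZT0, 3 lower at ZT2 and 6 lower at ZT4, with medians of 0.26, -0.25 and -0.37. The 3 lower of 8 at ZT0 and at ZT2 stood beside 14.2% and 10.3% of all genes, the 6 at ZT4 beside 16.9%, and the 4 higher at ZT0 beside 15.5%. MtTOE2 led at ZT0 (-1.55 ± 0.12, adjusted p = 5.30e-09) and ZT2 (-0.66 ± 0.12, adjusted p = 2.07e-04), and MtTEM1 at ZT4 (-1.52 ± 0.16, adjusted p = 3.11e-07). The 6 called lower at ZT4 fell to 2 without replicate 2 or without replicate 3 of SD there and to 3 without replicate 3 of LD there, and 1 was called higher at ZT2 without replicate 2 of SD at ZT0.

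Of the genes for CDF removal, MtGI fell in LD at all 3 timepoints, with -3.31 ± 0.25 on the log2 scale (SE, adjusted p = 3.66e-09 by edgeR's quasi-likelihood test) at ZT0, -0.85 ± 0.11 (adjusted p = 7.18e-06) at ZT2 and -1.78 ± 0.12 (adjusted p = 4.51e-10) at ZT4. MtFKF1 was higher in LD at ZT0, with 2 to 3 counts in SD and 14 to 33 in LD, and lower at ZT2 (-1.42 ± 0.27, adjusted p = 4.21e-04) and ZT4 (-4.99 ± 0.21, adjusted p = 1.20e-12). MtZTL, the third gene of that list, was not called at any timepoint.

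Of 5 FT-like genes, homologues of the florigen gene FT, 4 were tested, since MtFTa3 had no count in any library. For those other than MtFTa1 the paper leaves a role in flowering time to be shown. Those called higher in LD numbered 2 at ZT0, 2 at ZT2 and 3 at ZT4, and 1, MtFTa2, was called lower at ZT4, where all genes had 15.5%, 10.3% and 12.4% called higher and 16.9% lower at ZT4. The median log2 fold change, with genes treated at the floor as in the CDF list, was 2.57, 0.96 and 5.04. The call of MtFTa2 changed with the processing. At ZT0 it was lost with DESeq2 (adjusted p = 0.0846), with DESeq2 size factors (0.0509), with no filter (0.0569), with the replicate block (0.0664) and with the ZT0 libraries alone (0.0707), and at ZT4 it was lost with DESeq2 (0.0508). It also changed with the library left out: it was not called higher at ZT0 without any 1 replicate of SD at ZT0 or SD at ZT4, replicate 1 or 3 of LD at ZT0, replicate 1 of SD at ZT2 or replicate 3 of LD at ZT4. It was called lower at ZT2 without replicate 2 of LD at ZT0 or of LD at ZT2, and was not called at ZT4 without replicate 1 or 2 of SD or replicate 2 or 3 of LD there. MtFTa1 had 1 to 2 counts in a library in SD and 37 to 70 in LD at ZT0, 0 to 1 and 24 to 37 at ZT2, and 0 to 2 and 79 to 139 at ZT4. MtFTb1 had 0 counts in SD at each timepoint and, in LD, 0 at ZT0, 5 to 7 at ZT2 and 160 to 193 at ZT4, at least 57.0-fold higher than the floor of 3 counts in a library. MtFTb2 had 93 to 106 counts in LD at ZT4, at least 31.4-fold higher, and 0 counts in all SD libraries, a call that DESeq2 did not make (adjusted p = 0.228).

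In the pattern over the 18 libraries the 2 TPL-like genes were not close to each other. Their Pearson correlation, on log2 normalised counts with 1 added, was 0.32, which placed Medtr7g112460 at rank 5474 for Medtr4g114980, and the latter at rank 5559 for Medtr7g112460, among 19757 genes with a mean normalised count above 10. It was -0.12 for the deviations from the group means. Such correlations share the libraries, the experiments and the groups, and are given as a description.

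The genes most like Medtr4g114980 were Medtr7g057920 (r = 0.93), Medtr8g073170 (r = 0.93) and Medtr3g049330 (r = 0.92). Those most like Medtr7g112460 were Medtr8g104870 (r = 0.95), Medtr1g062980 (r = 0.93) and Medtr8g022290 (r = 0.93). The deposited tables give no names for these identifiers. MtFTa1 had r = -0.72 with both and ranks of 19386 for Medtr4g114980 and 19237 for Medtr7g112460, a direction that the choice of the 2 genes for a profile opposite to it fixes. Of the other TPL-like genes, Medtr4g009840 was nearest to Medtr7g112460 (r = 0.78, rank 420) and Medtr4g120900 was nearest to Medtr4g114980 (r = 0.56, rank 2492).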

How the data were processed

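The estimated counts deposited by the authors are not scaled. Per the study's methods and the submitters' processing notes, reads were trimmed with BBDuk, quantified with Salmon 0.8.2 against the Mt4.0v2 transcripts and summed per gene with tximport. The TPM values deposited by the authors come from the same step and sum to 1000000 per library.

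Counts were rounded, scaled by TMM and fitted with edgeR 4.0.16 (R 4.3.3) for the 31363 genes with a summed count above 1. The model had 6 groups, and the LD term without interaction came from a separate fit of photoperiod and timepoint. Quasi-likelihood tests were used, at a threshold of 0.05 on the Benjamini-Hochberg adjusted p. For LD against SD and for ZT2 against ZT0 the adjustment ran over all genes and the timepoints or photoperiods compared. For the interaction, the differences of log2 fold change between timepoints and the LD term it ran over all genes alone. The floor of a group was set at 3 counts in a library. Ratios were tested by exact permutation (Python 3.11.15, numpy 2.4.6). The steps were tested on simulated data.

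The 2 genes and the gene lists were chosen with earlier results of these data known, the lists from the study's candidates. Named are the 2 genes, all TPL-like genes, MtFTa1, MtFTb1, MtFTb2, MtGI, MtFKF1, the gene with the greatest change in the CDF, PRR and AP2 lists at each timepoint, and the 3 genes most correlated with each of the 2, while MtFTa2, MtFTa3 and MtZTL were named after their values were seen. None of the 50444 identifiers was found in the RefSeq table at hand, so names follow the study, and no sequence or coordinate is given. Alternatives were DESeq2 1.42.0, its size factors, other filters, length offsets, a replicate block, fewer libraries, other units or pseudocounts for the ratio, and each of the 18 libraries left out.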

Additional observations from a re-analysis of the deposited data

Results flagged for a closer look

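For 10 of the 21 genes of the TPL-like and other lists that are named and were tested, the effect of LD against SD differed between the 3 timepoints by the joint interaction test of edgeR, which 30.4% of all genes passed. Of the 21, those from the CDF, PRR and AP2 lists were named for the greatest change at a timepoint, so the count is a description. Among the TPL-like genes these were Medtr2g104140 (adjusted p = 0.00548), which was lower in LD at ZT0 and ZT2 and overlapped between photoperiods at ZT4, and Medtr4g120900 (adjusted p = 0.0295), which did the same with smaller changes. These are 2 of 7 TPL-like genes tested, near the share of all genes, but the 7 include the 2 members, drawn from genes without a passing interaction. The scarce Medtr2g435440 and Medtr2g065670 are also among the 7. In the lists of genes for CDF removal and of FT-like genes, those that passed were MtFKF1 (adjusted p = 2.64e-11), which was higher in LD at ZT0 and lower at ZT2 and ZT4, MtGI (adjusted p = 1.91e-06), and MtFTa2 (adjusted p = 0.00371), which was called higher at ZT0 and lower at ZT4. All 7 PRRs passed, and those named for the greatest change at a timepoint were MtPRR59c (adjusted p = 2.27e-08), MtPRR37a (adjusted p = 1.69e-05) and MtPRR59a (adjusted p = 3.53e-08). All 8 AP2 class genes passed, and those named by the same rule were MtTOE2 (adjusted p = 1.28e-06) and MtTEM1 (adjusted p = 2.66e-05). With DESeq2 the interactions of MtCDF1 (adjusted p = 0.0117) and MtFTb1 (adjusted p = 0.00269) passed as well. The test spans both experiments, so a difference that involves ZT4 cannot be told apart from one of experiment, age, days in LD or kit.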

How the results depend on the processing

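Over the alternatives run, 815 values for Medtr4g114980, Medtr7g112460, their ratio and the counts of called genes kept their direction and their side of the threshold, 17 passed it only there, 13 missed it only there and 3 counts moved by over 1.5 times. Medtr7g112460 was called lower in LD at all 3 timepoints under each setting and without any library, with log2 fold changes of -0.60 to -0.43 at ZT0, -0.71 to -0.52 at ZT2 and -0.84 to -0.67 at ZT4 over the libraries left out. Medtr4g114980 was between -0.70 and -0.51 at ZT4, where it kept its call, and between -0.28 and -0.07 at ZT0, where it was never called. At ZT2 its range was -0.56 to -0.29, with the call lost without 3 of the libraries, and its interaction had adjusted p of 0.0331 to 0.579. Leaving out libraries gave ZT2 against ZT0 in SD a range of 0.24 to 0.51 for Medtr4g114980 and of -0.34 to -0.25 for Medtr7g112460, and in LD of -0.49 to -0.28 for the latter. The LD against SD difference of the log2 ratio ranged from 0.16 to 0.31 (exact p of 0.00575 to 0.116), and was 0.24 on normalised counts (exact p = 0.049), 0.28 with experiment 1 alone (exact p = 0.14) and 0.16 with 1 TPM added (exact p = 0.139). The TPL-like genes called lower at ZT2 ranged from 3 to 5. With other settings, ZT2 against ZT0 in SD was -0.29 for Medtr7g112460 with DESeq2 size factors and -0.30 with filterByExpr, both past the threshold. For Medtr4g114980 it was 0.35 with experiment 1 alone, where it missed the threshold. With experiment 1 alone 5435 genes passed the interaction test, against 9548 with all libraries, a test with fewer samples and 1 coefficient in place of 2.

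SD and LD libraries share the replicate numbers 1 to 3, but the labels tie no number to a plant, day or batch. Deviations from the group means of 15 pairs with the same number correlated between -0.26 and 0.18, with 2 pairs over 0.1, and 5 of 15 correlated best with their own number. No pairing by number was seen, but whether libraries with the same number shared a day or batch cannot be told from these values. With the replicate number as a block ZT2 against ZT0 in SD was 0.36 for Medtr4g114980 (adjusted p = 0.0517), the interaction of Medtr4g120900 had adjusted p = 0.0604 and Medtr4g009840 at ZT0 had adjusted p = 0.0595. No other call of a TPL-like gene changed with the block.

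Reversals of sign were confined, among the alternatives run, to values that had not passed the threshold. Leaving out libraries gave Medtr2g065670 a range of -0.47 to 0.16 at ZT0 and -0.23 to 0.50 at ZT2 in LD against SD, Medtr4g120900 -0.15 to 0.0060 and MtTOE2 -0.055 to 0.084 at ZT4, and Medtr2g104140 -0.12 to 0.011 in ZT2 against ZT0 in SD. MtZTL ranged from -0.022 to 0.086 at ZT0 and -0.051 to 0.11 at ZT4, and was -0.013 at ZT0 with DESeq2 and with its size factors. The LD term of Medtr2g065670 was -0.036 with experiment 1 alone. The cause was not tested. Depth limits what can be said of Medtr2g065670, with at most 21 counts in a library, and of the 4 TPL-like genes below it.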
